A study of Homo sapiens with 18 samples.

Results

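The 60 genes described here act in DNA replication (27 genes) or in mitosis (33 genes). They were taken by symbol from a list, by a rule that uses no measured value, although the list was drawn up with earlier results of these data known, and all 60 were found among the 60683 gene rows of each of 2 count tables. Poly(A) RNA had been sequenced from the colorectal carcinoma cell line HCT-116 in 18 libraries that form 6 groups of 3. In the ACTB table, cells labelled Actin KO carried an empty construct, and the same knockout background stably expressed wild-type actin (ACTB-WT) or the mutant that the series design names H73A (ACTB-mut). In the SETD3 table, a SETD3 control (CT) was set beside 2 knockouts, KO1 and KO2. SETD3 is the methyltransferase that modifies the actin histidine missing from the mutant. The medium was DMEM with serum for every group. Neither the promoter that drives the actin constructs nor whether a knockout is 1 clone is given in the sources used here. Nothing in the labels states that replicates came from separate cultures, and p-values therefore measure only the spread between these libraries, which may be technical.

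A dividing cell first copies its genome and then separates the copies, and the RNAs for both tasks are made in waves. Before S phase the MCM helicase is loaded onto origins by CDC6 and CDT1. It is then switched on by CDC45 and the GINS complex, and polymerases follow it with the sliding clamp PCNA. Replication genes are classic targets of the E2F factors. Mitotic genes come later. Many of them are held off in resting cells by the DREAM complex at a CHR element, and are switched on by the B-MYB and FOXM1 factors, often with NF-Y at CCAAT boxes. In a bulk sample, fewer cells in a phase and less RNA per cell in that phase cannot be told apart. Actin builds the cortex and the contractile ring that the mitotic genes ANLN, ECT2 and RACGAP1 serve, and it also sets the activity of the SRF cofactor MRTF.

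The promoters of the 2 classes held different motif letters, given here as a description with no test. RefSeq windows on GRCh38.p14, from 250 bases before to 50 bases after a transcript start, were matched for 24 replication members (31 windows) and 26 mitotic members (33 windows). The letters TTTGAA, the core of the CHR element, stood on either strand in 22 of the 33 mitotic windows (66.7%) and in 1 of the 31 replication windows (3.23%, the nucleotide supply gene RRM1). Over the windows of all genes tested in either table the share was 10.2%. E2F-type letters (TTCCCGC, with the variants TTGGCGC and also TTCGCGC and also TTGCCGC, either strand) had the opposite split, with 64.5% of replication windows, 27.3% of mitotic windows and 19% of windows of tested genes. CCAAT, either strand, was in 58.1% of replication windows, 75.8% of mitotic windows and 34.8% of the windows of tested genes. These matches are letters in a window and show no binding. The windows below belong to the members on which the results turn. The motif letters just named are in capitals, and overlapping matches run together.

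MCM7, chr7:100101348-100101647 (-): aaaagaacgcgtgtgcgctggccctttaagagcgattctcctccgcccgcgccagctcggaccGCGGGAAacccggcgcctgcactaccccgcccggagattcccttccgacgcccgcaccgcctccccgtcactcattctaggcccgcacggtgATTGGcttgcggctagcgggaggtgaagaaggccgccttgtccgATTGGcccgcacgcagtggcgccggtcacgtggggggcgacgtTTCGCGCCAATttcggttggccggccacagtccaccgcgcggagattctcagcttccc
MCM7, chr7:100100705-100101004 (-): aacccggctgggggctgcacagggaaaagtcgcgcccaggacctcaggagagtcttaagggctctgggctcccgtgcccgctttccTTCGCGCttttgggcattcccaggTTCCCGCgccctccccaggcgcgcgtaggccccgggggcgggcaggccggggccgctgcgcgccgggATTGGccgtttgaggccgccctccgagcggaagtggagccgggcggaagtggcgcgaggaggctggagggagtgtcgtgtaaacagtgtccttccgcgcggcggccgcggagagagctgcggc
CDT1, chr16:88803539-88803838 (+): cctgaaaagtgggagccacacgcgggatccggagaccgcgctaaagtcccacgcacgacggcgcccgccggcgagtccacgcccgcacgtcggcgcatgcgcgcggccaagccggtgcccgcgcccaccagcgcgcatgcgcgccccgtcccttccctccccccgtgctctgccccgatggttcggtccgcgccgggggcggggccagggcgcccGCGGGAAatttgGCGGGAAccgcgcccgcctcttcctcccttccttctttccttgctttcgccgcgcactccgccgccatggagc
PTTG1, chr5:160421605-160421904 (+): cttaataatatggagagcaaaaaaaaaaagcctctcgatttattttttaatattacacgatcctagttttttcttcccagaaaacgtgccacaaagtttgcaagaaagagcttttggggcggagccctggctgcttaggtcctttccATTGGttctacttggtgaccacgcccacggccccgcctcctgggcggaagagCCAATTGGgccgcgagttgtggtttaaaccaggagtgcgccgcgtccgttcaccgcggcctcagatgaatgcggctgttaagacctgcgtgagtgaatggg
PLK1, chr16:23678639-23678938 (+): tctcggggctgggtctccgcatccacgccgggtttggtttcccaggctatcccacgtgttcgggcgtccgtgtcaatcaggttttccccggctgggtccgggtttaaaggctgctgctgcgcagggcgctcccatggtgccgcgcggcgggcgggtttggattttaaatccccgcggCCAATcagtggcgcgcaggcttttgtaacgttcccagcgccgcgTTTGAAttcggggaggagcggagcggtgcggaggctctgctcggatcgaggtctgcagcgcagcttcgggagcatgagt
MKI67, chr10:128126374-128126673 (-): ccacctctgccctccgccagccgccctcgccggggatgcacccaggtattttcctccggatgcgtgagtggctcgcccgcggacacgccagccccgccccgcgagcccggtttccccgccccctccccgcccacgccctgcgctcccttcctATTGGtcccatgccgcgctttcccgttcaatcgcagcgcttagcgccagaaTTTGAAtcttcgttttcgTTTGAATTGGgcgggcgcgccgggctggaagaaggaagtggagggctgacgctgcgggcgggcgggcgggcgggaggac

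The first MCM7 window held 3 E2F-type matches and 3 CCAAT matches, and 2 of the E2F-type matches overlapped 1 CCAAT at the transcript start. The second held 2 E2F-type matches and 1 CCAAT. Another MCM7 window, chr7:100100480-100100779, held 1 CCAAT and no E2F-type match and is not printed. CDT1, the origin licensing factor, had 2 E2F-type matches close together and no CCAAT. PLK1, a kinase that drives entry into and passage through mitosis, had 1 CCAAT upstream of 1 CHR. Both letters together stood in 51.5% of the mitotic windows, 3.23% of the replication windows and 4.08% of the windows of tested genes. MKI67, whose protein coats mitotic chromosomes and is the usual stain for dividing cells, had 2 CHR and 2 CCAAT matches. PTTG1, the securin that holds separase in check until anaphase, had CCAAT matches without a CHR.

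Depth ranged from 5144386 to 11271910 counts per library in the ACTB table and from 3389586 to 11652967 in the SETD3 table. SETD3 CT replicate 2 and KO2 replicate 1 were the shallowest of their table, at 4898827 and 3389586 counts, and results that lean on them are given without them too. KO2 replicate 3 carries the cell line label HCT-117 and was kept in its group. ACTB RNA was 14.9 to 24.9 CPM in Actin KO, 23.2 to 31.0 CPM in ACTB-WT and 32 to 47.1 CPM in ACTB-mut, and 662.4 to 1455.7 CPM in the separately normalised SETD3 table. RNA of the endogenous gene and of the constructs was not told apart. SETD3 RNA was 6.34 to 17.1 CPM in KO1, 15.6 to 27.7 CPM in KO2 and 14.0 to 36.0 CPM in CT, so both knockouts overlapped the control, and the RNA level does not check the labels. Epithelial markers summed to at least 8297.0 CPM in each library, while blood markers reached at most 2.28 CPM in sum and fibroblast markers at most 19.9 CPM, with COL3A1, DCN and LUM at 0 throughout, and endothelial markers at most 2.23 CPM. Of the 10 epithelial markers, CEACAM5 had no count in Actin KO, and VIL1 had none in CT or KO2.

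The most abundant RNAs among the members served origin licensing and anaphase control. Per transcript length (TPM, averaged over 18 libraries), MCM7, a subunit of the helicase, stood highest at 412.8, with a range of 307.5 to 508.1. CDC20, the activator of the anaphase-promoting complex, followed at 410.9 TPM, with a range of 281.8 to 550.3, so the order of the first 2 is within their spread. AURKB, the kinase of the chromosomal passenger complex, reached 220.6 TPM, PCNA 187.8 and the thymidylate synthase TYMS 180.0. The leading members of the other roles were BIRC5 among kinetochore and centromere genes (172.2 TPM), TPX2 among spindle motors and cytokinesis genes (88.2), CCNB1 among mitotic cyclins (84.0), GINS2 among helicase activators (77.3), FOXM1 among chromosome and transcription genes (49.3) and CCNE1 of the G1/S cyclins (18.9). At the other end were the checkpoint kinase TTK (0.0757 TPM, no count in 14 of 18 libraries) and the kinetochore motor CENPE (0.148 TPM, no count in 9). TOP2A, the topoisomerase that untangles sister chromatids, was at 1.01 TPM, and CDK1, the kinase that cyclin B activates, at 5.21 TPM.

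Levels were higher in members with GC-rich transcripts. Members with a GC content below 42% had a median of 2.66 TPM (14 genes), those from 42 to 50% 17.81 TPM (27 genes) and those at 50% or more 86.23 TPM (19 genes). Across the 60 members the Pearson correlation of GC content with log2 TPM was 0.65, against 0.36 over 12918 genes tested in both tables, and these points share the same 18 libraries. The median GC content was 49.1% in replication members and 43.9% in mitotic members. The part of library chemistry in the low level of AT-rich members was not tested.

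**Figure D1:**
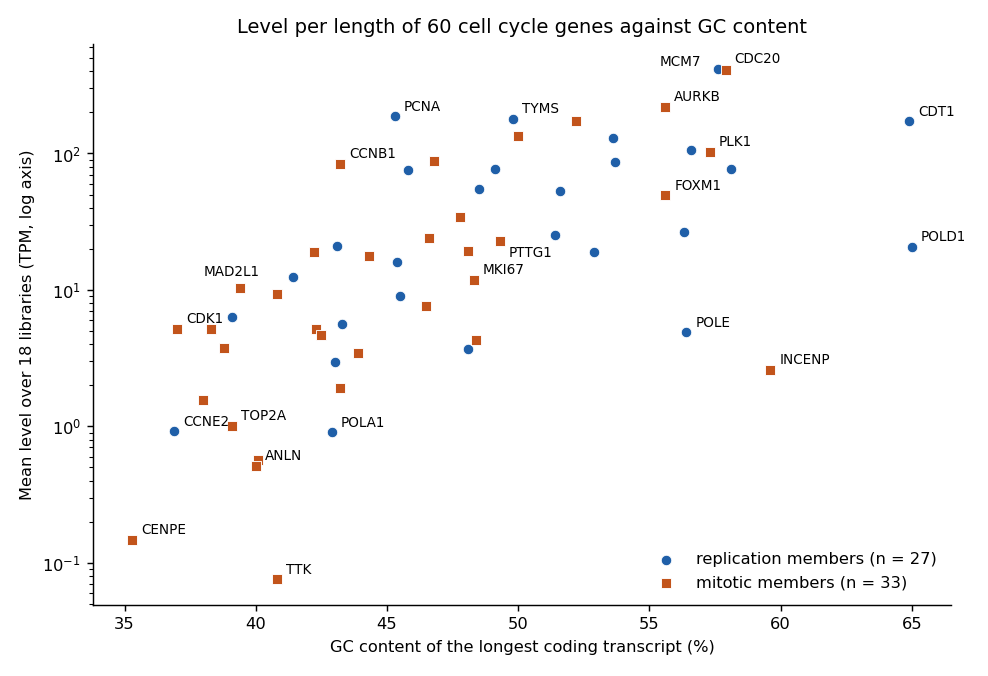
Mean level per length (TPM, log axis) of each member over 18 libraries against the GC content of its longest coding transcript, with replication members as circles and mitotic members as squares. MCM7 (412.8 TPM) and CDC20 (410.9 TPM) sit at the top right, and the AT-rich TTK (0.0757 TPM) and CENPE (0.148 TPM) at the bottom.

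A filter on low counts kept all 27 replication members in both tables. Of the 33 mitotic members it kept 30 in the ACTB table (not TTK, CENPE and ANLN) and 31 in the SETD3 table (not TTK and NDC80). Tests were made with edgeR's quasi-likelihood method, and a call is a Benjamini-Hochberg adjusted p below 0.05 over all 13882 (ACTB) or 13846 (SETD3) tested genes. Levels below are CPM, counts per 1000000 scaled by TMM. Fold changes are log2 values from the same fit, with standard errors (SE).

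With wild-type actin, mitotic members were on the whole at lower levels than in the knockout, and replication members were not. The median log2 fold change was 0.01 for the 27 replication members, -0.40 for the 30 mitotic members and -0.01 for all tested genes. Of the mitotic members 26 were below 0 and 4 above, while replication members split 15 above and 12 below, and 50.7% of all genes were below 0. None of the 57 members was called by edgeR, against 1.12% of all genes. At an unadjusted p below 0.05, 9 mitotic members were lower and 0 higher, and 3 replication members were higher and 1 lower, where all genes gave 6.18% lower and 5.05% higher. DESeq2 called 3 members, PLK1 and PTTG1 lower and RFC2 higher, against 2.58% of all genes. The mitotic median lay between -0.52 and -0.33 when each library was left out in turn, and it was -0.39 with offsets for GC content and length. ACTB-WT was also the shallower group, at 5144386, 7601018 and 5726946 counts, against 7512656, 8099698 and 8774607 in Actin KO. The part of depth in this difference was not tested.

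PLK1 was at 201.2, 180.8 and 178.4 CPM in Actin KO and at 126.9, 119.9 and 125.3 CPM in ACTB-WT. The groups did not overlap, as held for 7 of 30 mitotic members in this direction and for 9.08% of all genes. The difference was -0.59 (SE 0.14, edgeR adjusted p = 0.053), just outside the threshold, so it is reported as not called. PTTG1 had 23.3, 15.1 and 14.6 CPM in the knockout and 7.56, 3.9 and 7.32 CPM with wild-type actin, again without overlap (-1.51, SE 0.40, edgeR adjusted p = 0.107). FOXM1, the transcription factor of the G2 and M wave, had 133.7, 166.7 and 144.2 CPM against 102.6, 112.1 and 95.5 CPM. All 3 ACTB-WT libraries were below all 3 knockout libraries (-0.52, SE 0.15, edgeR adjusted p = 0.135).

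The lower values ran through several mitotic roles. All 7 tested members of the spindle motor and cytokinesis group were below 0, with a median of -0.69, as were all 6 tested kinetochore and centromere members (median -0.41). Libraries were separate in that direction for only 3 of the 7 and 1 of the 6, beside 9.08% of all genes. In each of these roles 2 members were lower at an unadjusted p below 0.05, beside 6.18% of all genes. TPX2, which targets AURKA to the spindle, had a log2 fold change of -0.46 (SE 0.13) and CENPF, a kinetochore protein, -0.60 (SE 0.20). For the cytokinesis activator ECT2 the value was -1.77 (SE 0.78), and the counts behind it were small, 114 in the knockout group and 25 in ACTB-WT. AURKB, by contrast, was at 0.01 (SE 0.25), CDC20 at -0.19 (SE 0.19) and CDK1 at 0.97 (SE 0.62), so not every mitotic member was lower. None of these 6 passed the adjusted threshold. A wider list of 49 tested mitotic genes outside the members had a median of -0.04, with 26 below 0, 3 lower and 2 higher at an unadjusted p below 0.05, none called by edgeR and 1 called by DESeq2. In the same comparison 39 other replication genes had a median of -0.03, with 2 higher and 2 lower at an unadjusted p below 0.05 and none called by edgeR or DESeq2.

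Among replication members, RFC2, a subunit of the loader that places PCNA on DNA, had 103.9, 125.3 and 119.0 CPM in the knockout and 177.2, 192.9 and 150.9 CPM in ACTB-WT. The groups were separate (0.58, SE 0.15, edgeR adjusted p = 0.0919), which 4 of 27 replication members showed in this direction beside 7.64% of all genes. GINS1, part of the active helicase, was at 25.1, 26 and 24.2 CPM against 35.4, 40.6 and 42 CPM (0.65, SE 0.23), also separate. The flap endonuclease FEN1, which trims Okazaki fragments, was 0.42 higher (SE 0.15), and its exons overlap those of FADS2 on the same strand. MCM2 (0.01, SE 0.13) and PCNA (0.11, SE 0.12) lay close to 0. All 3 nucleotide supply genes (RRM1, RRM2 and TYMS) were below 0, with a median of -0.33.

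**Figure D2:**
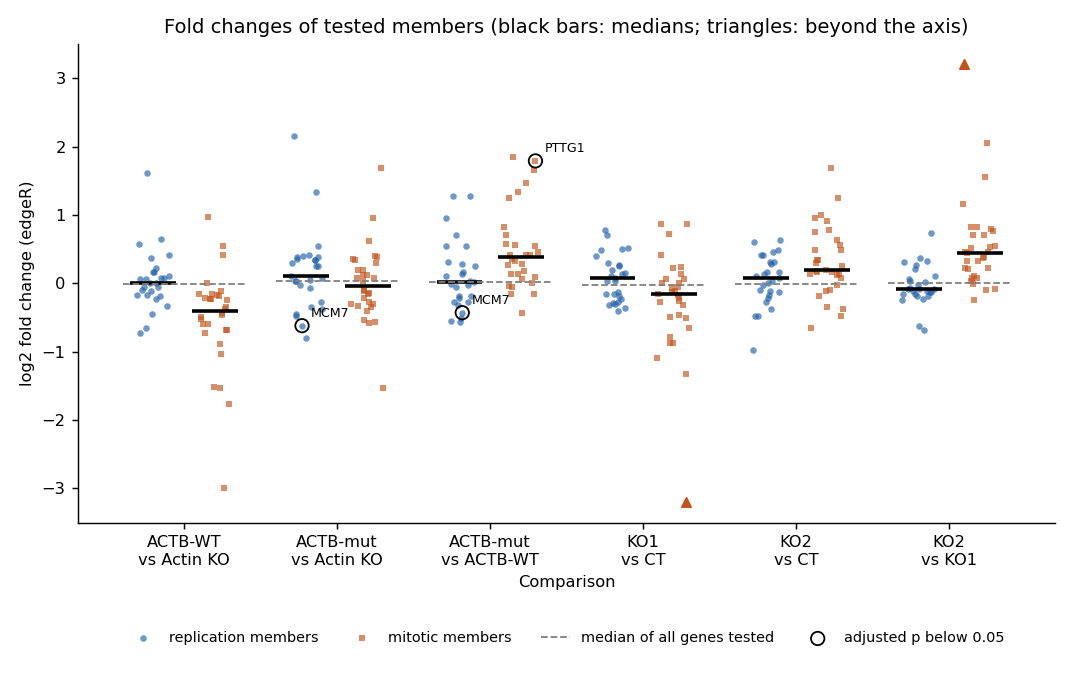
Log2 fold changes of the tested members in 6 comparisons, replication members as circles and mitotic members as squares, with black bars at the medians of each class, dashed lines at the median of all tested genes and rings around members with an adjusted p below 0.05. The mitotic median is -0.40 for ACTB-WT against Actin KO and 0.39 for ACTB-mut against ACTB-WT, which share the ACTB-WT libraries, and the 2 triangles are CENPE, which had no count in KO1.

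Mutant actin against the knockout gave 1 call, a fall of MCM7, among 57 tested members, against 0.922% of all genes. MCM7 was at 1051.8, 1014.6 and 1081.3 CPM in Actin KO, 902.1, 916.6 and 941.6 CPM in ACTB-WT and 671.1, 674.7 and 705.1 CPM in ACTB-mut. The 3 groups did not overlap, and the mutant libraries were the lowest of the 9. MCM7 fell by 0.62 on the log2 scale (SE 0.09, edgeR adjusted p = 0.0042) relative to the knockout. With a library left out in turn the adjusted p was 0.0114 to 0.0292. Fold changes of this comparison fell with GC content over 3828 genes above 32 CPM (Pearson r of -0.34 across genes), and MCM7 has a GC content of 57.6%. With GC and length offsets the difference was -0.44 and still called (edgeR adjusted p = 0.0334), while a replicate block added to the offsets left it uncalled (adjusted p = 0.0976).

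The other subunits of the MCM ring were not called. MCM2 was at 0.04 (SE 0.13), MCM3 at -0.07 (SE 0.16), MCM4 at 0.04 (SE 0.15), MCM5 at -0.28 (SE 0.14) and MCM6 at 0.34 (SE 0.28). The difference between MCM7 and these subunits was not tested. MCM7 lies at chr7:100092728-100101940 (minus strand, GRCh38), where exons of AP4M1 overlap it on the opposite strand. AP4M1 was at 21.1 to 33.7 CPM in these 9 libraries, and the strand setting of the counting is unknown here. CDT1 had 432.2, 395.8 and 467.7 CPM in the knockout and 295.4, 257.1 and 376.1 CPM in the mutant (-0.48, SE 0.14, edgeR adjusted p = 0.155), with separate groups. With the GC and length offsets it was at -0.25, and its GC content is 64.9%, among the highest of the members. POLE, the catalytic subunit of the leading strand polymerase, was at -0.80 (SE 0.29).

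The median was 0.10 for replication members and -0.04 for mitotic members, with all genes at 0.03. PLK1 and FOXM1 were below the knockout here too, and the comparison shares the knockout libraries with the one above. PLK1 had 119.5, 120.2 and 147.1 CPM in ACTB-mut (-0.54, SE 0.14, edgeR adjusted p = 0.0941) and FOXM1 had 100.8, 95.6 and 103.8 CPM (-0.57, SE 0.15, edgeR adjusted p = 0.0945). Every mutant library lay below every knockout library for both genes. DESeq2 called both, and also CDT1 and MCM7, against 2.85% of all genes. PLK1 and FOXM1 stayed uncalled in 12 of 13 alternative settings. Over these the fold changes were -0.65 to -0.43 for PLK1 and -0.64 to -0.41 for FOXM1. Their GC contents are 57.3% and 55.6%, and the part of the GC trend in their values was not tested. Separate groups in the lower direction were seen for 4 of 30 mitotic and 4 of 27 replication members, with 9.16% of all genes, and in the higher direction for 2 and 8, with 9.31%. At an unadjusted p below 0.05, 4 members were higher and 6 lower, where all genes gave 5.09% and 6.41%. CDK1 had 5.97, 0.859 and 3.65 CPM in the knockout against 11.8, 11.6 and 10.1 CPM in the mutant (1.68, SE 0.62, edgeR adjusted p = 0.285), and it rested on 84 counts in the knockout group.

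**Figure D3:**
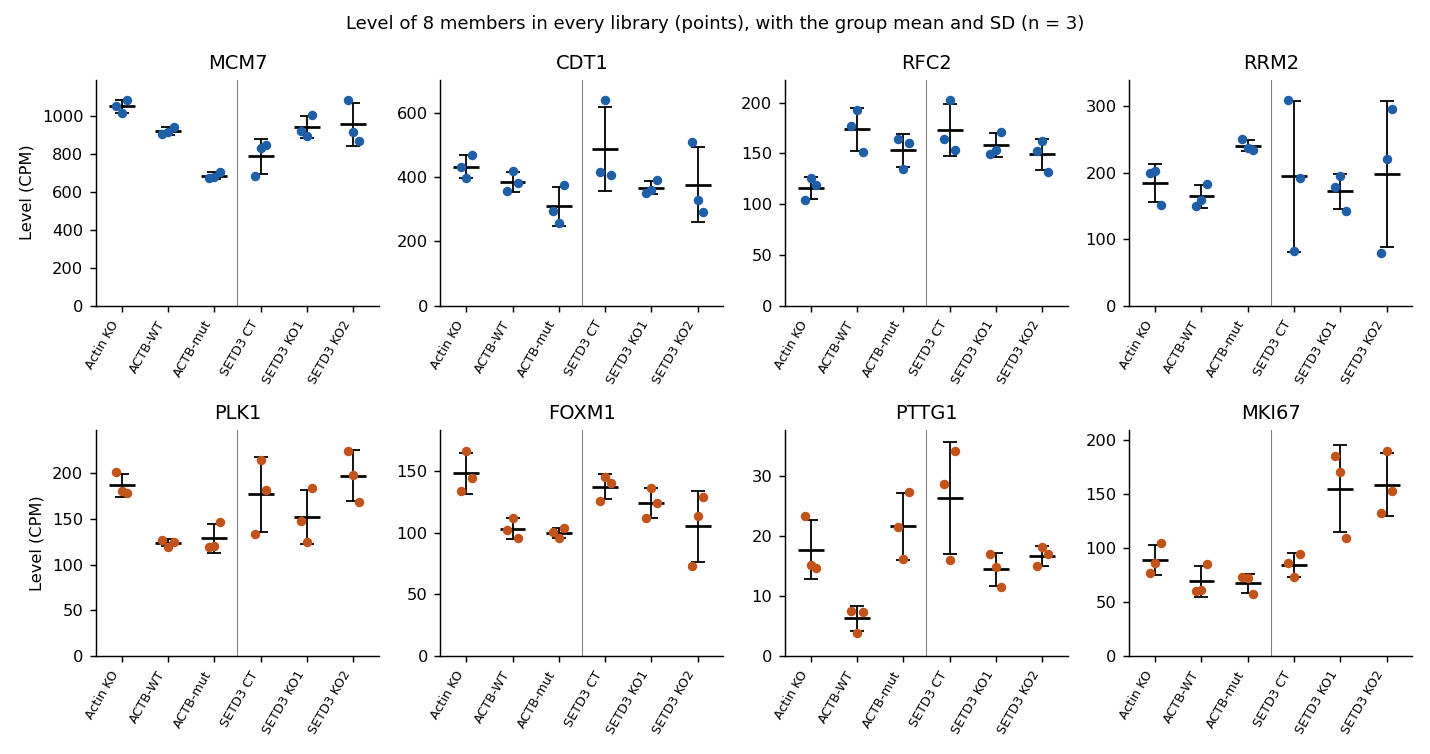
Level (CPM) of 8 members in each of 18 libraries (points), with the group mean (bar) and SD (whiskers, n = 3) and a grey line between the 2 tables. Within the ACTB table MCM7 is lowest in the 3 ACTB-mut libraries (671.1 to 705.1 CPM) and PTTG1 in the 3 ACTB-WT libraries (3.9 to 7.56 CPM), and in the SETD3 table MKI67 is higher in KO1 and KO2 than in CT.

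The direct comparison of mutant with wild-type actin called 2 of 57 members, MCM7 lower and PTTG1 higher, against 1.24% of all genes. MCM7 fell by 0.43 on the log2 scale (SE 0.09, edgeR adjusted p = 0.0295). PTTG1 rose from 7.56, 3.9 and 7.32 CPM to 21.4, 16.2 and 27.3 CPM (1.79, SE 0.40, edgeR adjusted p = 0.0409). Its 3 mutant libraries overlapped those of the knockout, while the wild-type libraries lay below both. Both calls were close to the threshold. Leaving out any 1 of the 6 libraries moved the adjusted p above 0.05, to 0.0689 to 0.123 for MCM7 and 0.056 to 0.153 for PTTG1, while the log2 fold changes kept to -0.46 to -0.42 and 1.54 to 1.96. GC and length offsets gave -0.28 (adjusted p = 0.207) and 1.65 (adjusted p = 0.0696). The near-identical copies PTTG2 and PTTG3P had 0 counts in all 18 libraries.

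Mitotic members were on the whole at higher levels with the mutant than with wild-type actin, with a median of 0.39 against 0.02 for replication members and 0.02 for all genes. The wider lists did not show this contrast, with medians of 0.12 for 49 other mitotic genes and 0.18 for 39 other replication genes. The median of the mitotic members was 0.23 without ACTB-mut replicate 1 and 0.26 without ACTB-mut replicate 3, and 0.24 with a replicate block and GC and length offsets. Of these members 25 of 30 were above 0 beside 51.9% of all genes, and 8 had separate groups in that direction beside 9.93%. None of them was separate in the lower direction, which 6 of 27 replication members and 8.14% of all genes were. Replication members went both ways, with 5 of 27 separate in the higher direction. At an unadjusted p below 0.05, 6 members were higher and 2 lower, where all genes gave 6.01% and 5.99%. All 7 tested members of the spindle motor and cytokinesis group and all 5 of the mitotic cyclin group were above 0. Of these, 3 of the 7 and 1 of the 5 had separate groups in that direction. KIF23, the motor of the central spindle, had 2.58, 8.73 and 9.58 CPM with wild-type and 17.8, 20.7 and 15.0 CPM with mutant actin (1.34, SE 0.46, edgeR adjusted p = 0.223). NUF2, of the kinetochore's microtubule-binding complex, had 4.57, 1.88 and 1.05 CPM against 8.66, 5.69 and 9.13 CPM (1.65, SE 0.67, edgeR adjusted p = 0.325). PLK1 (0.06, SE 0.14) and FOXM1 (-0.05, SE 0.15) differed by less than their errors. The comparison shares its ACTB-WT libraries with the first one, so the opposite medians are not independent. Depth also differed, at 5144386 to 7601018 counts in ACTB-WT and 7919495 to 11271910 in ACTB-mut, and the part of depth was not tested. RNA of 9 mitochondrial genes, kept as a sign of RNA quality, summed to 7575.0 to 12988.0 CPM in ACTB-mut, 5194.2 to 6450.0 CPM in ACTB-WT and 6206.8 to 6993.4 CPM in Actin KO, so the mutant libraries were the highest, and its part in the mutant comparisons was not tested. The 11 tested members below 42% GC had library medians of 0.23 to 0.76 (log2 CPM relative to the table) in ACTB-mut. These medians were -0.42 to -0.05 in ACTB-WT and -0.12 to 0.22 in Actin KO. The part of GC in the result was not tested beyond the offsets, under which the mitotic median was 0.29.

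RRM2, the regulated subunit of ribonucleotide reductase, was at 150.1, 159.2 and 183.2 CPM with wild-type and 249.9, 237.6 and 233.5 CPM with mutant actin. Groups were separate (0.55, SE 0.14, edgeR adjusted p = 0.0826), and DESeq2 called this gene in addition to MCM7 and PTTG1, against 3.21% of all genes. RRM1 (0.95, SE 0.58) and TYMS (0.31, SE 0.14) were also higher without overlap. RRM2 shares exon bases with an annotated gene on the same strand and has processed pseudogenes, so its value is uncertain where counting split reads. MYBL2, which encodes B-MYB and belongs to a separate list of cell cycle regulators, was at 212.4, 181.1 and 180.0 CPM against 124.5, 118.7 and 131.5 CPM (-0.61, SE 0.15, edgeR adjusted p = 0.0553), and it is named here after its values were seen. Of the 31 tested regulators in that list none was called by edgeR in the 3 ACTB comparisons, with 3, 2 and 1 higher and 2, 5 and 2 lower at an unadjusted p below 0.05 and 0, 3 and 1 called by DESeq2, in the order wild-type against knockout, mutant against knockout and mutant against wild-type. For mutant against wild-type, the other mitotic list had a median of 0.12 (4 higher and 1 lower at that p, 0 called by edgeR and 1 by DESeq2) and the other replication list a median of 0.18 (4 higher and 3 lower, 0 called by edgeR and DESeq2).

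Set library by library, the contrast between the classes was higher in all 3 wild-type libraries than in the other 6, given as a description with no test. The median centred log2 level of replication members minus that of mitotic members was 0.22, 0.19 and 0.34 in the ACTB-WT libraries. It was -0.03, -0.17 and -0.29 in Actin KO and -0.14, -0.02 and -0.07 in ACTB-mut. The mitotic medians were -0.17, -0.15 and -0.28 in ACTB-WT and above 0 in the other 6 libraries, whereas replication medians were within 0.10 of the table mean in all 9. The slope of library level per 10 points of GC was -0.03 to 0.09 in ACTB-WT, -0.01 to 0.15 in Actin KO and -0.16 to -0.05 in ACTB-mut, and its part in the contrast was not tested. Nor was the part of depth, which was lowest as a group in ACTB-WT.

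**Figure D4:**
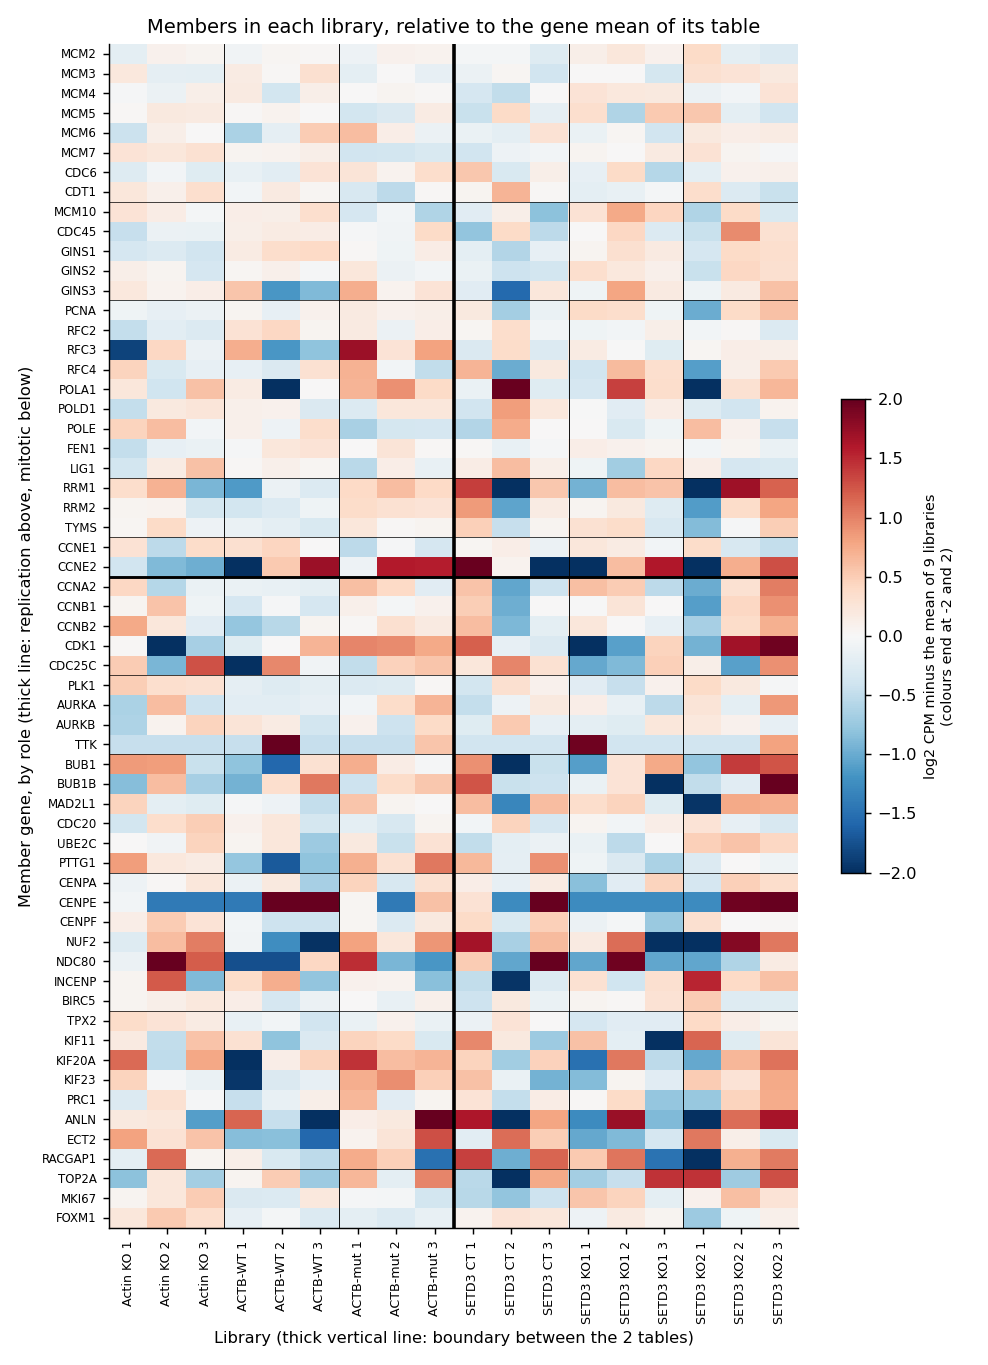
Log2 CPM of the 60 members in 18 libraries relative to each gene's mean over the 9 libraries of its table, ordered by role with replication members above the thick horizontal line. The ACTB-WT columns are blue for most mitotic rows, the SETD3 CT 2 and KO2 1 columns differ from their replicates, and the strongest colours fall on members with few counts such as CENPE, NDC80 and ANLN.

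In the SETD3 table no member was called in any comparison. For KO1 against CT, 0 of 58 members was called by edgeR and by DESeq2, with 3 higher and 2 lower at an unadjusted p below 0.05. Of all genes 0.0144% were called by edgeR and 0.52% by DESeq2, and 2.74% were higher and 3% lower at that unadjusted p. For KO2 against CT it was again 0 by edgeR and DESeq2 (3 higher, 0 lower at an unadjusted p below 0.05), with 0.0578% and 0.65% of all genes called and 2.68% higher and 2.28% lower. For KO2 against KO1 it was also 0 by edgeR and DESeq2 (3 higher, 0 lower at an unadjusted p below 0.05), with 0.0289% and 0.404% of all genes called and 2.72% higher and 2.12% lower. Standard errors were larger in this table, for example 0.23 for PLK1 in KO1 against CT and 0.14 in ACTB-WT against Actin KO. In simulated counts of well-expressed genes, 17 of 100 log2 changes of 1 were called for KO1 against CT. For ACTB-WT against Actin KO it was 67 of 100. Of 100 log2 changes of 2, 81 and 97 were called. The absence of calls in the SETD3 table therefore does not exclude log2 changes of 1.

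MKI67 was the member with the lowest p in both knockouts. It was at 86.1, 72.9 and 94.5 CPM in CT, at 185.0, 170.8 and 109.2 CPM in KO1 and at 133.0, 190.4 and 153.3 CPM in KO2. Every knockout library was above every control library, as for 1 of 31 mitotic members in KO1 beside 6.47% of all genes, and for 3 of 31 in KO2 beside 4.97%. The differences were 0.87 (SE 0.24, edgeR adjusted p = 0.575) and 0.91 (SE 0.24, edgeR adjusted p = 0.445), and both comparisons use the same control libraries. Without the 2 shallow libraries they were 0.79 (adjusted p = 0.426) and 0.93 (adjusted p = 0.517). Among other mitotic members, FOXM1 was at -0.15 (SE 0.23) and -0.38 (SE 0.23) and CDC20 at 0.00 and -0.10 (both SE 0.22).

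UBE2C, the ubiquitin-conjugating enzyme of the anaphase-promoting complex, was highest in KO2. It had 116.8, 125.0 and 112.6 CPM in KO2, 59.7, 73.4 and 77.5 CPM in CT and 76.5, 58.4 and 84.0 CPM in KO1. The KO2 libraries were above all 6 others (0.75 against CT, SE 0.22, edgeR adjusted p = 0.611, and 0.70 against KO1, SE 0.22, edgeR adjusted p = 0.926). INCENP, the scaffold of the chromosomal passenger complex, had 5.92, 1.99 and 6.95 CPM in CT and 24.8, 11.3 and 12.8 CPM in KO2 (1.69, SE 0.60, edgeR adjusted p = 0.828), and the difference was 0.91 without the 2 shallow libraries. CENPE had 23 counts in CT, 0 in KO1 and 49 in KO2. On a floor of 3 counts over the group, its pooled counts were at least 7.37-fold lower in KO1 than in CT and at least 13.6-fold higher in KO2 than in KO1. These bounds leave out the spread between libraries, and neither difference was called (edgeR adjusted p = 0.836 and 0.999). The CT libraries were at 0.485, 0.0 and 2.27 CPM, and the shallow library of CT and that of KO2 had no count either.

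Among replication members, MCM4 was at 118.4, 105.9 and 149.1 CPM in CT and 181.4, 172.6 and 171.1 CPM in KO1, without overlap (0.49, SE 0.20, edgeR adjusted p = 0.826). GINS2 was at 113.1, 93.3 and 96.4 CPM in CT and 156.5, 144.4 and 133.8 CPM in KO1 (0.52, SE 0.24, edgeR adjusted p = 0.854), and in KO2 at 92.0, 166.4 and 155.8 CPM, where the low value is the shallow replicate 1. MCM10, which helps to fire the loaded helicase, had 15.7, 20.2 and 10.4 CPM in CT and 22.6, 31.2 and 25.0 CPM in KO1 (0.78, SE 0.41, edgeR adjusted p = 0.932). All 3 KO1 libraries were above the CT libraries. In KO1, 7 of 27 replication members were separate from CT in the higher direction, beside 6.47% of all genes, and 1 in the lower. All 5 helicase activation members were above 0 in KO1 (median 0.52, with 48.6% of all genes above 0) and in KO2 (median 0.48, with 49.2%), comparisons that share the CT libraries. MCM3 was higher in KO2 at 146.4, 142.1 and 134.9 CPM against 107.8, 120.8 and 90.4 CPM (0.41, SE 0.20), with no overlap. In KO2, 2 of 27 replication members were separate in that direction, beside 4.97% of all genes, and 0 in the lower. MCM7, the member called with mutant actin, was at 681.3, 827.5 and 848.0 CPM in CT, 921.1, 892.2 and 1003.5 CPM in KO1 and 1080.9, 915.5 and 866.6 CPM in KO2. Its differences from CT were 0.26 (SE 0.16) in KO1 and 0.28 (SE 0.16) in KO2, the opposite sign to the mutant actin comparisons, and both uncalled (edgeR adjusted p = 0.971 and 1). PTTG1 was lower than CT in both, at -0.87 (SE 0.39) in KO1 and -0.65 (SE 0.39) in KO2.

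In KO1 the medians were 0.08 for replication and -0.15 for mitotic members, in KO2 0.07 and 0.20, and for KO2 against KO1 -0.09 and 0.44, with all genes between -0.02 and 0.01. Above 0 in the last comparison were 27 of 31 mitotic members and 50.7% of all genes. Replication members with the lowest p in that comparison were MCM3 (0.37, SE 0.20), MCM10 (-0.62, SE 0.40) and MCM6 (0.32, SE 0.25). TPX2 had the third lowest p there, at 189.7, 205.0 and 203.4 CPM in KO1 and 313.8, 261.9 and 248.9 CPM in KO2 (0.46, SE 0.18, edgeR adjusted p = 0.999). Single libraries weighed on these medians. The mitotic median of KO1 against CT was -0.02 without CT replicate 1, with 16 members above 0 and 16 below, -0.07 without KO1 replicate 1, -0.10 without KO1 replicate 3, and -0.26 without CT replicate 2 or without both shallow libraries. The mitotic median of KO2 against CT was 0.56 without KO2 replicate 1, 0.37 without CT replicate 1, 0.08 without KO2 replicate 3 (the library labelled HCT-117) and 0.27 without both shallow libraries. For KO2 against KO1 it was 0.20 without KO2 replicate 3, 0.26 without KO1 replicate 3 and 0.52 without both shallow libraries. The sum of the 9 mitochondrial genes was 6514.3 to 8049.6 CPM in KO1, 8373.2 to 11683.7 CPM in KO2 and 7601.3 to 15058.8 CPM in CT, so KO1 and KO2 did not overlap, and its part in these differences was not tested.

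Within KO2 and CT the mitotic medians were lowest in the shallow library, which also had the highest GC slope. In KO2 the mitotic medians were -0.27, 0.30 and 0.73 in replicates 1, 2 and 3, where the GC slopes were 0.40, -0.13 and -0.23 and the depths 3389586, 10961333 and 11652967 counts. In CT they were 0.29, -0.31 and 0.08, with GC slopes of -0.22, 0.28 and -0.03, and replicate 2 is the shallow one. In KO1 they were -0.11, -0.04 and -0.23, with GC slopes of -0.01, -0.18 and 0.13 and depths of 6526017, 7899891 and 6835427 counts. The lowest median was in replicate 3, which had the highest GC slope but was not the shallowest library. Some members were low in the shallow libraries, such as RRM2, at 308.7, 82.2 and 192.0 CPM in CT and 79.3, 219.8 and 295.8 CPM in KO2. Its 2 low values are the 2 shallow libraries. CCNB1 (62.5 and 57.6 CPM) and PCNA (101.5 and 81.2 CPM) were lowest in the same 2. Others went the opposite way: CDT1 (639.4 and 508.9 CPM) and CDC20 (757.7 and 673.8 CPM) were highest of their groups there. In CT replicate 2 and KO2 replicate 1, tested members of the highest GC class had medians of 0.32 and 0.32. Those of the lowest GC class had -0.45 and -0.64. The spread of the class contrast between replicates was larger here, with a pooled SD of 0.29 in the SETD3 table and 0.09 in the ACTB table. The part of depth and GC in these differences was not tested.

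**Figure D5:**
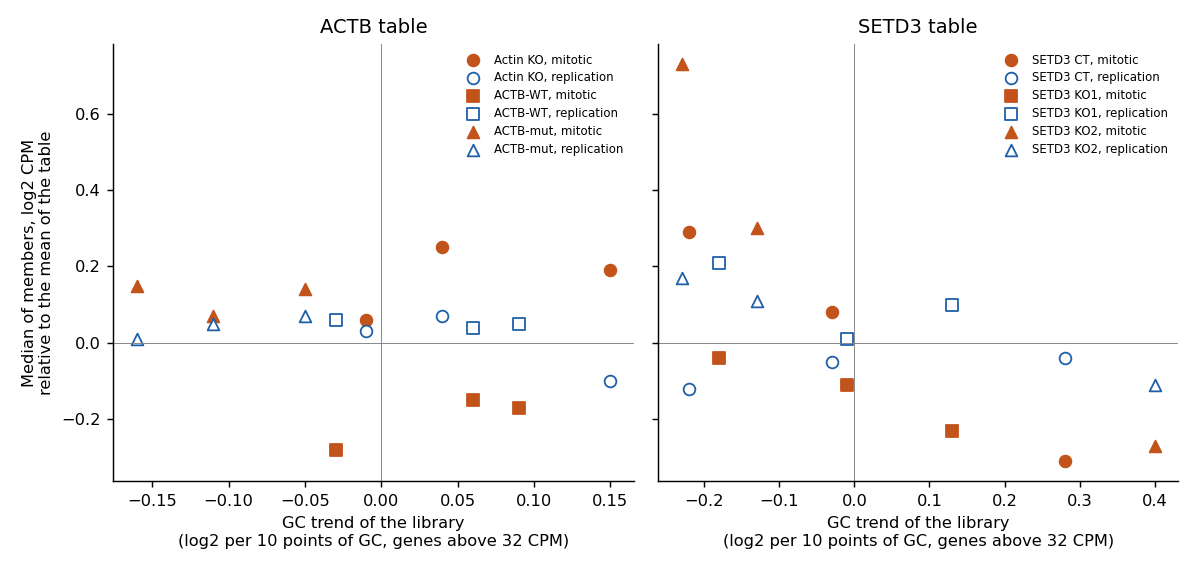
Median of the tested mitotic (filled) and replication (open) members in each library, as log2 CPM relative to the table mean, against the GC trend of the library (log2 slope per 10 points of GC) over genes above 32 CPM. In the ACTB table the 3 ACTB-WT libraries have mitotic medians of -0.28 to -0.15 at GC trends of -0.03 to 0.09, and in the SETD3 table mitotic medians range from 0.73 at a GC trend of -0.23 to -0.31 at 0.28.

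Other lists of the same pathways gave no call in the SETD3 table by edgeR. Of 38 tested replication genes outside the members, the medians were 0.13 in KO1, 0.10 in KO2 and -0.13 for KO2 against KO1, with 2, 0 and 0 higher and 0, 1 and 0 lower at an unadjusted p below 0.05 and none called by DESeq2. Of 50 tested mitotic genes outside the members they were -0.07, 0.00 and 0.09, with 0, 2 and 3 higher and 1, 1 and 1 lower at an unadjusted p below 0.05 and 0, 1 and 0 called by DESeq2. Of 32 tested regulators the medians were -0.11, -0.09 and 0.11, with 0, 0 and 1 higher and 2, 1 and 2 lower at that p and none called by DESeq2. CDKN1A, the p53 target p21 that inhibits cyclin-dependent kinases, was named after its values were seen. It was at 652.5, 734.4 and 606.6 CPM in CT and 470.5, 508.9 and 498.6 CPM in KO1 (-0.43, SE 0.17, edgeR adjusted p = 0.826), and at -0.29 (SE 0.17) in KO2.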

How the data were processed

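The deposited values are expected counts per gene from RSEM, 1 table for the actin libraries and 1 for the SETD3 libraries. Per the submitters' processing notes, the tools were Trim Galore 0.4.5, cutadapt 1.15, Bowtie2 and RSEM 1.2.28, with GRCh38 as build. No source used here gives the annotation release or whether counting used strand. Of the values above 0, 83.4% and 83.8% were whole within 0.005, and all were rounded for testing. The 2 tables were fitted separately in edgeR 4.0.16 in R 4.3.3 (low-count filter, TMM, quasi-likelihood with robust spread, 9 libraries), with Benjamini-Hochberg adjustment over all tested genes. The method was tested on simulated data. DESeq2 1.42.0, other scaling, no filter, 2 groups alone, GC and length offsets, a replicate block and each library left out were alternatives. Leaving out both shallow libraries was chosen after seeing the data. GC content and length came from the longest coding transcript in GENCODE 29, and TPM was computed with that length. No 2 libraries of a group agreed within sampling noise (chi-square per gene 14.74 to 40.94).

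The members and the gene lists were chosen with earlier results of these data known. The rule for named members took each called member, the 3 replication and 3 mitotic members of lowest p in each comparison, the most abundant member of each role, and MCM2, PCNA, MKI67 and FOXM1. Other members and regulators named were chosen after their values were seen. Comparisons within a table share libraries and are not independent.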

Additional observations from a re-analysis of the deposited data

Results flagged for a closer look

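MCM7 and PTTG1 were called in the main fit by the test of mutant against wild-type actin itself, in the same knockout background. The differences were -0.43 for MCM7 (edgeR adjusted p = 0.0295) and 1.79 for PTTG1 (edgeR adjusted p = 0.0409). Neither call was firm: it was kept in 2 of 13 alternatives for MCM7 and 3 of 13 for PTTG1, and was lost with any library left out. MCM7 was lower than in the knockout by both constructs' point estimates, at -0.19 (SE 0.09) with wild-type and -0.62 (SE 0.09) with mutant actin. PTTG1 was at -1.51 (SE 0.40) with wild-type and 0.29 (SE 0.38) with mutant actin, and its 3 ACTB-WT libraries held 109 counts in all against 622 in ACTB-mut.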

How the results depend on the processing

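No called value changed sign under any alternative run. Over all named members and alternatives, 455 values kept their side of the threshold, 22 lost a call and 7 gained one. Most of the 455 were uncalled values that stayed uncalled, and only called values can lose a call. MCM7 kept its call in 12 of 13 alternatives for mutant actin against the knockout. For mutant against wild-type actin, MCM7 kept it in 2 of 13 and PTTG1 in 3 of 13. For ACTB-WT against Actin KO, 155 genes were called, and 358 by DESeq2, 320 without the low-count filter, 89 with the replicate block and 79 to 106 with a library left out. DESeq2 called 3 members where edgeR called 0, and the replication minus mitotic median of 0.41 was 0.33 to 0.58 with a library left out.

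For ACTB-mut against Actin KO, 128 genes were called, and 395 by DESeq2, 371 without the filter, 85 with the block, 42 with the block and GC and length offsets and 34 to 77 with a library left out. Members called were 4 by DESeq2 and 0 with block and offsets. The class difference of 0.14 was 0.03 without the filter, 0.3 with offsets, 0.24 with block and offsets and -0.03 to 0.25 with a library left out.

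For ACTB-mut against ACTB-WT, 172 genes were called, and 446 by DESeq2, 402 without the filter, 104 with the 2 groups alone, 83 with the block, 114 with offsets, 68 with block and offsets and 60 to 129 with a library left out. The 2 members became 1 without the filter (PTTG1 remained) and 0 with the 2 groups alone, the block, the offsets, both together or any library left out (0 to 0). The class difference of -0.36 was -0.44 to -0.2 with a library left out.

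For KO1 against CT, 2 genes were called, and 72 by DESeq2, 58 without the filter, 1 with the 2 groups alone, 0 with the block, 12 with offsets, 10 without both shallow libraries and 0 to 4 with a library left out. For KO2 against CT, 8 were called, and 90 by DESeq2, 68 without the filter, 1 with the 2 groups alone, 1 with the block, 28 with offsets and 3 to 7 with a library left out. The class difference of -0.13 was -0.37 to 0.05 with a library left out. For KO2 against KO1, 4 were called, and 56 by DESeq2, 58 without the filter, 15 with offsets and 10 without both shallow libraries. No member was called in the SETD3 table under any of these settings.

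The labels give only a replicate number, and no pairing was assumed. Same-numbered libraries of different groups had correlations of -0.152 to 0.152 (ACTB table) and -0.545 to 0.214 (SETD3 table). Libraries of different numbers had -0.115 to 0.169 and -0.522 to 0.56. Same-numbered Actin KO and ACTB-mut libraries were at 0.052, 0.123 and 0.152, and same-numbered pairs with ACTB-WT at -0.152 to -0.001. With 3 libraries per group, centred on the group mean, these values cannot exclude pairing. The SETD3 table has the shallowest libraries, 3389586 and 4898827 counts. The cause of the changes between settings was not tested.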
